A study of Mus musculus with 32 samples.

Results

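Transcripts of 9 genes of the interleukin-6 (IL-6) signalling route were followed in the tibialis anterior, a muscle of the lower hind leg, of *Mtm1* knockout (KO) and wild-type (WT) mice. The genes form a list of named members of the route, drawn up with earlier results of these data known: the ligands *Il6* and *Lif*, the receptor chains *Il6ra*, *Osmr*, *Lifr*, *Il6st* and *Il20rb*, the transcription factor *Stat3* and the feedback inhibitor *Socs3*. They are 9 of the 54838 genes in the count table. *Mtm1* encodes myotubularin, a phosphoinositide phosphatase whose loss causes X-linked myotubular myopathy.

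The KO line carried a constitutive deletion of exon 4 of *Mtm1*, was generated on 129S2PAS and was rederived to C57BL6/J, the background given for all samples. No transgene or Cre was involved, and no other treatment was given. Poly(A)-selected RNA of whole skeletal muscle was sequenced with a strand-specific kit at postnatal day (P) 1, P14, P21 and P35, with 4 WT and 4 KO libraries at each age, 32 in all. The study describes the WT animals as littermates.

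Total counts ran from 49321035 to 85631408 per library, and in all 48 pairs of libraries within a group the 2 libraries differed by more than sampling noise. Levels are given as CPM, counts scaled to library size. The 8 muscle fibre markers, genes that define the labelled tissue, summed to 20890 to 134400 CPM and were thus abundant in every library. *Mtm1* itself had mean CPM of 5.51, 20.6, 20.7 and 22.1 in WT at P1, P14, P21 and P35, against 2.77, 4.07, 3.14 and 3.69 in KO. WT and KO did not overlap at any age, although the difference at P1 (log2 fold change -0.98, adjusted p = 0.0668) did not pass the test.

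As background, cytokines of the IL-6 family share the receptor chain gp130, the product of *Il6st*. IL-6 binds IL-6 receptor alpha (*Il6ra*) before it engages gp130, whereas leukaemia inhibitory factor (*Lif*) and oncostatin M signal through pairs of gp130 with the chains made by *Lifr* and *Osmr*. Janus kinases on these chains phosphorylate STAT3, which enters the nucleus and induces, among other genes, *Socs3*, whose product blocks the receptor. In muscle the route is known from exercise, regeneration and wasting. *Il20rb* belongs to another receptor family: its chain pairs with that of *Il20ra* or *Il22ra1* to bind IL-19, IL-20 and IL-24, which also signal to STAT3, and it is best known from keratinocytes of the skin.

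The promoter of *Socs3* is shown because it alone of the 9 held the core of the STAT binding motif. The letters TTCNNNGAA, which read the same on both strands, were searched in windows from 250 bases before to 50 bases after each RefSeq transcript start (GRCm38.p6). All 9 genes matched, *Lifr* with 2 starts, and the motif was found in the *Socs3* window and in none of the other 9 windows. It was present in 2726 of all 32851 windows (8.3%). The stretch lies on the minus strand at chr11:117969452-117969616 (GRCm38) and is 165 bases long. The upstream bases searched were chr11:117969367-117969616. Those nearest the RefSeq start reached into an annotated GENCODE exon and were cut away before printing. The printed stretch lies within the GENCODE span of *Socs3* (chr11:117966079-117970047). The motif, in capitals, starts 154 bases before the RefSeq start. A match is a description of these letters and is no evidence of binding.
*Socs3* promoter: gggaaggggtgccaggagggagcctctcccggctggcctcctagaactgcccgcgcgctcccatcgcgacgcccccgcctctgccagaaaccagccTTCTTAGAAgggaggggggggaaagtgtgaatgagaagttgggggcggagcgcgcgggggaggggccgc

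At P21 and P35 *Il20rb* was over 10-fold higher in KO muscle and *Lifr* was lower. *Stat3* passed both thresholds given below at P21 only and *Socs3* at P35 only, each higher in KO. The KO effect at P35 minus that at P21 did not pass the edgeR interaction test for *Stat3* (log2 -0.13, adjusted p = 0.689) or *Socs3* (0.15, 0.917). The shared chain *Il6st* did not pass the test at any age. A gene was called when edgeR's quasi-likelihood test gave a Benjamini-Hochberg adjusted p under 0.01 and the fold change exceeded 1.5 (0.585 on the log2 scale). Of the 8 members that passed the filter on low counts at each age, all but *Il6*, none was called at P1 or P14. At an unadjusted p under 0.05 there were 2 members at P1 (*Osmr*, *Il6ra*) and 2 at P14 (*Stat3*, *Il20rb*). Over all genes, 1978 of 18100 at P1 and 1072 of 15728 at P14 reached that level. DESeq2 called 0 members at P1 and 1, *Il20rb*, at P14. At P21, 3 of 8 were called (*Lifr* lower, *Il20rb* and *Stat3* higher), and at P35, 3 of 8 (*Lifr* lower, *Il20rb* and *Socs3* higher).

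The share of all tested genes that was called was 0.0442% (P1), 0.0318% (P14), 4.67% (P21) and 16.0% (P35), so the members' counts at the older ages have to be read against a high background. WT and KO did not overlap for 1 member in the P1 libraries (8.62% of all genes), 2 in those of P14 (4.84%), 3 in those of P21 (24.7%) and 4 in those of P35 (39.6%). The median log2 fold change of the members was 0.20 at P21 and 0.28 at P35, beside 0.01 and 0.04 over all genes. The P1 comparison, in which no member was called, had the same member median of 0.20 (all genes 0.01). For P14 it was 0.07 (all genes 0.0003). Fold changes are relative to the trimmed mean of M-values (TMM) scaling. With library totals in its place the median of all genes moved to 0.20 at P21 and 0.44 at P35 in favour of KO, and the calls changed from 2 higher and 1 lower to 2 and 0 at P21 and to 4 and 0 at P35 (*Il20rb*, *Socs3*, *Stat3* and *Lif*). With the size factors of DESeq2 there was 1 higher and 1 lower at P21, without *Stat3*.

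**Figure D1:**
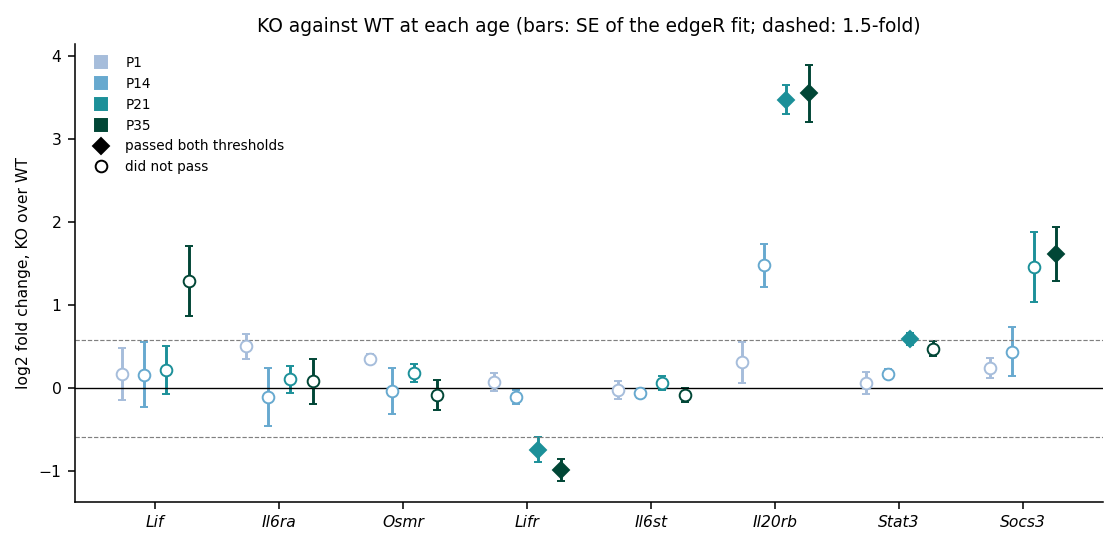
Log2 fold change of KO over WT for the 8 tested members at P1, P14, P21 and P35, with lines of 1 standard error (SE) of the edgeR fit. Diamonds mark values past both thresholds and dashed lines mark 1.5-fold. *Il20rb* stands at 3.47 and 3.55 at P21 and P35, *Lifr* at -0.74 and -0.98, and *Il6st* between -0.08 and 0.06.

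Both ligands were scarce. *Il6* (chr5:30013114-30019981) had at most 18 counts in any library. At P1 the 4 WT libraries held 5, 8, 5 and 10 counts and the KO libraries 10, 4, 5 and 13. At P35 the WT libraries held 0, 2, 1 and 2 counts and the KO libraries 4, 18, 10 and 7. The groups did not overlap there, but *Il6* was below the filter at every age. Tested without the filter, its log2 fold change at P35 was 2.33 with an adjusted p of 0.0275, which was not called.

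*Lif* (chr11:4257557-4272514) was highest at P1, where WT had 1.76, 1.10, 0.937 and 1.66 CPM and KO 2.43, 1.36, 1.24 and 1.02 CPM. By P21 it was between 0.270 and 0.644 CPM in WT and between 0.430 and 0.657 CPM in KO. At P35 WT had 0.268, 0.515, 0.261 and 0.323 CPM and KO 0.384, 1.46, 0.720 and 0.713 CPM. One KO library, replicate 1, lay inside the WT range. *Lif* missed the threshold at P35, with a log2 value of 1.29 (SE 0.42, adjusted p = 0.0351). Leaving out single libraries gave 0.84 to 1.54.

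Of the chains that pair with gp130, *Lifr* was called at P21 and P35, and *Il6ra* and *Osmr* did not pass the test at any age. *Lifr* (chr15:7090614-7197489), the chain for LIF, ciliary neurotrophic factor and related ligands, did not pass the test at P1 and P14, with log2 fold changes of 0.08 and -0.10. At P21 WT had 113.9, 98.3, 81.5 and 103 CPM and KO 71.5, 42.3, 56.4 and 64.8 CPM. At P35 WT had 113, 101, 123 and 103 CPM and KO 64.6, 61.7, 46.8 and 45.4 CPM. Every KO library lay below every WT library at both ages.

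*Lifr* was 0.597 of the WT level at P21 (log2 fold change -0.74, SE 0.15, adjusted p = 0.00857) and 0.506 at P35 (-0.98, SE 0.13, adjusted p = 5.19e-04). The call of *Lifr* at P21 was kept without KO replicate 1 or WT replicate 3 and lost without any other library, with adjusted p up to 0.0283. The P35 call was kept in all 8 such fits. With library totals *Lifr* was not called at either age (-0.55, adjusted p = 0.0164, and -0.58, adjusted p = 0.00631), against medians of all genes of 0.20 and 0.44. In whole muscle, less RNA per cell and fewer cells of a type that expresses the gene cannot be told apart. Endothelial markers were lower in KO at P35 for 2 of 5 genes, with a summed level of 327.8 to 610.7 CPM in WT and 286.2 to 356.5 in KO. Satellite cell markers were lower for 2 of 4 genes, with sums of 22.5 to 25.5 and 18.7 to 20.6 CPM. Muscle fibre markers were lower for 2 of 8, with sums of 84530 to 118500 and 58130 to 76380 CPM. At P21 the endothelial sums did not overlap (549 to 835.1 CPM in WT, 433.3 to 518.5 in KO), with none of the 5 genes called. The satellite cell sums at P21 were 32.6 to 37.7 CPM in WT and 27.6 to 31.6 in KO, with *Calcr* (log2 -2.11) and *Pax7* (-0.91) called lower. Muscle fibre sums at P21 were 99530 to 134400 and 87630 to 92870 CPM, with none of 8 called. Not every list was lower in KO at P35. Schwann cell sums were 87.2 to 547.1 CPM in WT and 292.4 to 1176 in KO, with none of 5 genes called. Sums for fibroblasts and fibro-adipogenic progenitors were 3181 to 3990 and 3255 to 5032 CPM, with none of 6 called. Both sums also overlapped between the genotypes at P21. Over all tested genes, 4.67% were called at P21 and 16.0% at P35. The part of these markers in the *Lifr* differences was not tested.

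*Il6ra* (chr3:89864059-89913196), the IL-6 binding chain, had 7.89, 6.61, 9.72 and 7.68 CPM in WT at P1, against 13.3, 10.7, 8.91 and 11.9 CPM in KO. The ranges overlapped and the log2 fold change of 0.50 (SE 0.15, adjusted p = 0.261) did not pass. At P14, P21 and P35 its log2 fold changes were -0.10, 0.10 and 0.08. Its exons share 242 bases (2.8%) with the antisense gene *Gm42809*, which had at most 5 counts in any library.

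*Osmr* (chr15:6813577-6874969), the oncostatin M chain, had 10.3, 10.5, 11.0 and 11.4 CPM in WT at P1, against 13.9, 14.4, 13.1 and 13.2 CPM in KO. This was the only member whose groups did not overlap at P1, and the difference was small (log2 fold change 0.35, SE 0.06, adjusted p = 0.0668). At P14 replicate 4 stood high in both genotypes, with 16.7 CPM in WT and 16.9 CPM in KO, while the other 6 libraries lay between 8.63 and 10.3 CPM. The log2 fold changes at P14, P21 and P35 were -0.03, 0.19 and -0.08, and without WT replicate 4 the value at P14 was 0.22.

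*Il6st* (chr13:112464070-112510086), the shared gp130 chain, had mean CPM of 169, 201, 239 and 226 in WT and 165, 193, 248 and 210 in KO at the 4 ages. At P35 the libraries ran from 209.7 to 246.5 CPM in WT and from 196.2 to 234.1 CPM in KO. The log2 fold changes were -0.02, -0.06, 0.06 and -0.08, with SE of 0.11, 0.06, 0.08 and 0.09, and none passed the test.

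**Figure D2:**
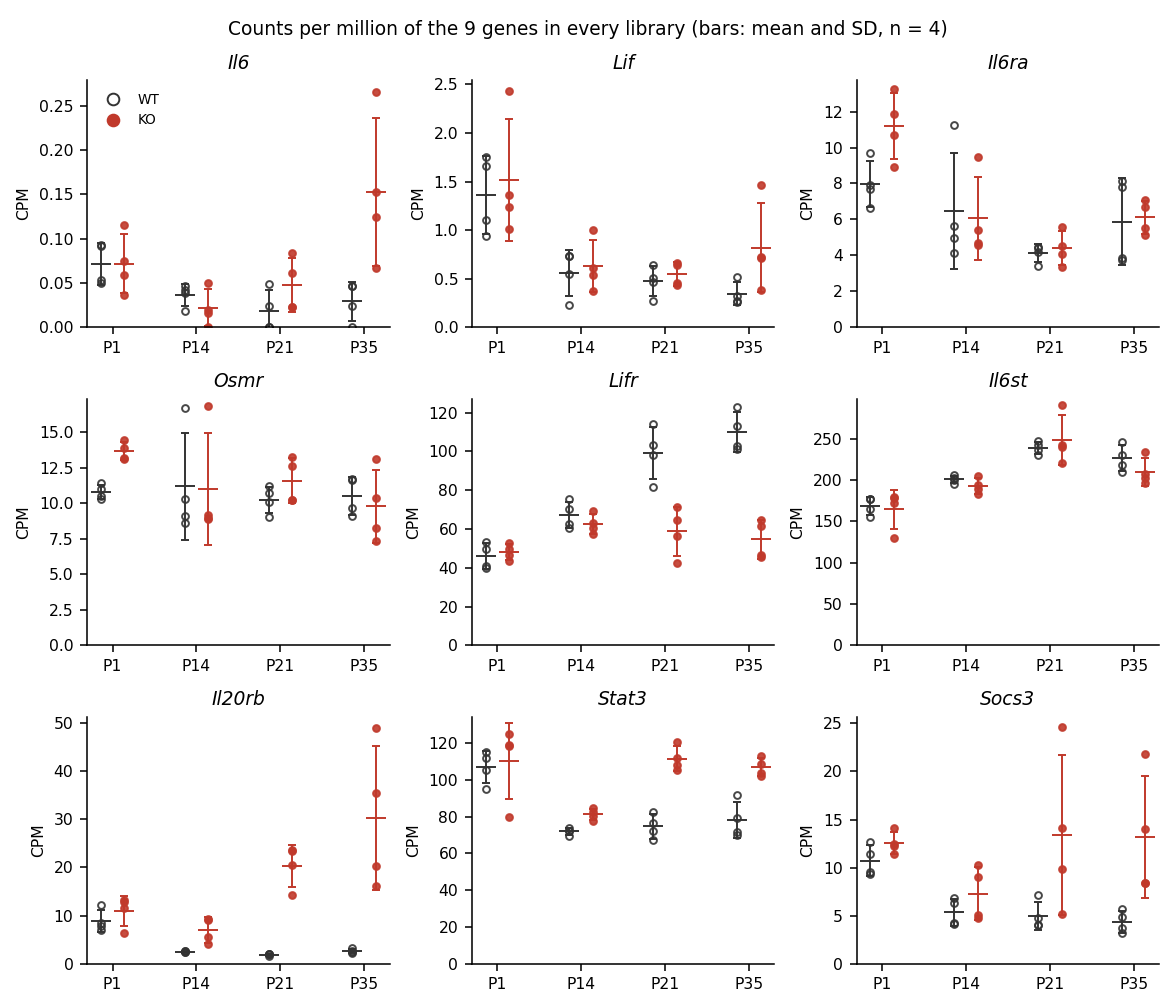
CPM of each member in each of the 32 libraries, by age, with WT as open and KO as filled points and bars for the mean and SD of 4 libraries. *Il20rb* and *Stat3* separate WT from KO from P14 on, *Lifr* at P21 and P35, *Socs3* and the scarce *Il6* at P35, and *Osmr* at P1. *Il6st* overlaps at every age.

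*Il20rb* (chr9:100457719-100486788) showed the largest differences among the members. At P14 WT had 2.32, 2.69, 2.33 and 2.59 CPM and KO 4.04, 5.44, 9.001 and 9.35 CPM. At P21 WT had 2.04, 1.92, 1.497 and 1.93 CPM and KO 23.5, 23.4, 14.2 and 20.5 CPM. At P35 WT had 3.14, 2.36, 2.26 and 2.72 CPM and KO 20.3, 16.2, 49.0 and 35.4 CPM. From P14 on every KO library lay above every WT library, and the KO libraries at P35 spread over 3-fold.

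The fold changes of *Il20rb* were 11.1 at P21 (log2 3.47, SE 0.18, adjusted p = 2.26e-05) and 11.7 at P35 (log2 3.55, SE 0.35, adjusted p = 1.40e-04). Both calls were kept whichever library was left out, with log2 values of 3.37 to 3.61 and 3.21 to 3.76. At P14 the log2 fold change of 1.48 (SE 0.26) had an adjusted p of 0.123. At that age WT and KO libraries of one replicate number were taken as pairs, an assumption drawn from correlations in these same data. With the replicate block the value was 1.41 (SE 0.18, adjusted p = 0.00267), which was called. DESeq2 also called it (1.48, adjusted p = 2.6e-05), and without single libraries the adjusted p in edgeR ran from 0.0384 to 0.413.

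At P1 *Il20rb* overlapped between the genotypes, with 8.52, 7.86, 12.2 and 7.05 CPM in WT, against 13.1, 11.5, 6.32 and 12.7 CPM in KO. The P1 libraries also carried RNA of keratinocyte markers (12 genes, among them the keratins *Krt5* and *Krt14*), summing to 2208 to 6970 CPM in WT and 1934 to 5690 CPM in KO. WT replicate 3 was the highest WT library in both measures and KO replicate 3 the lowest KO library in both. The remaining libraries did not all keep that order: WT replicate 4 was lowest in *Il20rb* but had a larger sum (2893 CPM) than WT replicate 2 (2208 CPM). From P14 on *Krt5* was at most 0.398 CPM and *Krt14* at most 0.322 CPM in each of the 24 libraries, against P1 means of 249.7 and 143.7 CPM in WT.

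The summed keratinocyte markers were nevertheless higher in KO at P21 (38.9 to 48.4 CPM against 11.3 to 13.7 in WT) and P35 (43.5 to 59.6 against 14.3 to 16.5). At both ages 4 of the 12 genes passed the filter and 3 of these were called higher: *Trp63*, *Sfn* and *Perp*. Over all tested genes, 4.67% were called at P21 and 16.0% at P35. *Trp63*, which encodes the transcription factor p63, had mean CPM of 5.83 in WT and 27.8 in KO at P21. *Sfn*, which encodes 14-3-3 sigma, had 1.42 and 6.59. *Perp*, which encodes a desmosomal protein, had 2.31 and 4.77. The part of keratinocytes in the levels of *Il20rb* was not tested at any age. *Krt10*, another keratin of the list, stayed between 2.49 and 5.16 CPM in the libraries of P21 and P35, with means of 2.71 in WT and 3.12 in KO at P21 and 4.41 and 4.33 at P35.

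**Figure D3:**
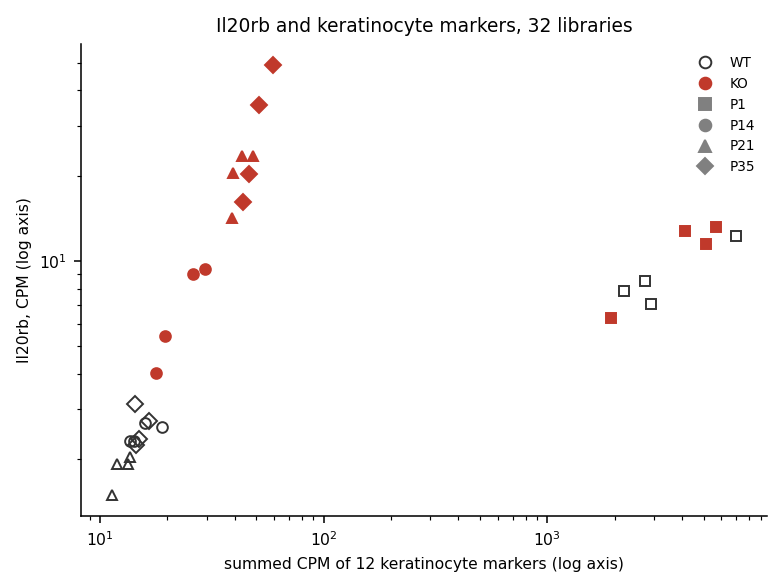
*Il20rb* CPM against the summed CPM of 12 keratinocyte markers in the 32 libraries, both on log axes, with shapes for age, open points for WT and filled points for KO. The P1 libraries lie far to the right, at sums of 1934 and more, whereas the KO libraries of P21 and P35 reach higher *Il20rb* values at sums of 38.9 to 59.6.

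The partners of the IL20RB chain were almost not counted in older muscle. Over the 24 libraries of P14 to P35, *Il20ra* summed to 1 count in WT and 4 in KO, and *Il22ra1*, the alternative partner, to 4 and 7. Of the ligands, *Il19* had 7 counts in each genotype, *Il20* had 0 and 1, and *Il24* had 0 in both. No library of these ages held more than 3 counts of any of these 5 genes, so a difference between the genotypes was not detectable at this depth. *Il10rb*, the chain shared by IL-10, IL-22 and interferon lambda, was counted in all 24 libraries, with 5623 and 7396 counts. At P1 the sums over 8 libraries were 131 for *Il20ra* and 1424 for *Il22ra1*.

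*Stat3* (chr11:100885098-100939540), the transcription factor on which these receptors converge, differed by modest amounts and passed both thresholds at P21 only. At P14 WT had 72.3, 72.0, 73.9 and 69.6 CPM and KO 84.9, 80.2, 82.4 and 77.9 CPM. At P21 WT had 82.7, 76.5, 67.2 and 72.1 CPM and KO 105, 120.8, 112 and 108 CPM. At P35 WT had 91.7, 79.1, 69.9 and 71.7 CPM and KO 104, 113, 102 and 108.5 CPM. At each of these 3 ages the lowest KO library exceeded the highest WT library.

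The log2 fold change of *Stat3* was 0.17 (SE 0.05, adjusted p = 0.486) at P14 and 0.59 (SE 0.07, adjusted p = 0.00109) at P21, where the fold of 1.51 stood just past the threshold. At P35 it was 0.48 (SE 0.09, adjusted p = 0.00358), or 1.39-fold, past the threshold on p but not on fold. The P21 call rested on that margin: without KO replicate 2, WT replicate 3 or WT replicate 4 the log2 value was 0.55, 0.54 and 0.58, with adjusted p no higher than 0.0044. It also fell short of the fold threshold in DESeq2 (0.58), with the size factors of DESeq2 (0.58) and in the fit of all 32 libraries (0.58). Exons of *Stat3* and of *Stat5a* on the other strand share 72 bases, 0.756% of those of *Stat3*.

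*Socs3* (chr11:117966079-117970047), whose product inhibits gp130 signalling, varied between KO libraries. At P21 WT had 4.72, 4.01, 3.99 and 7.11 CPM and KO 5.14, 14.1, 24.6 and 9.83 CPM. At P35 WT had 3.16, 5.73, 3.75 and 4.84 CPM and KO 8.43, 21.9, 8.38 and 14.0 CPM. KO replicate 1 lay inside the WT range at P21, and the groups did not overlap at P35.

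At P21 the log2 fold change of *Socs3* was 1.46 (SE 0.42) with an adjusted p of 0.0362, and without KO replicate 1 it was called (adjusted p = 0.00967). At P35 it was 1.62 (SE 0.33, adjusted p = 0.00390), or 3.07-fold. This call was lost without KO replicate 4 (adjusted p = 0.0103) or without WT replicate 1, 3 or 4 (0.0132, 0.0139 and 0.0110). At P1 and P14 the log2 fold changes were 0.24 and 0.44. Macrophage markers, which mark cells that can express *Socs3*, were higher in KO for 4 of 8 genes at P35 (*Cd68*, *C1qa*, *C1qb*, *Itgam*), beside 16.0% of all genes called. The 8 genes summed to 72.0 to 94.9 CPM in WT and 85.1 to 116.7 CPM in KO. The list did not move as 1: *Mrc1*, not called, was lower in KO without overlap (26.4 to 33.5 CPM in WT, 19.6 to 24.6 in KO). The mean of *Cd163* was 9.80 CPM in WT and 7.92 in KO. At P21, 2 of the 8 were called higher, *Cd68* (log2 1.23) and *C1qa* (0.64), beside 4.67% of all genes called. Of the 8, 6 did not overlap between the groups, beside 24.7% of all genes. The sums were 85.5 to 98.4 CPM in WT and 97.7 to 123.1 CPM in KO. The part of macrophage markers in the *Socs3* and *Stat3* values was not tested. Neutrophil markers stayed at or below a sum of 2.62 CPM and lymphocyte markers at or below 1.36 CPM in each library of P21 and P35.

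The step from P1 to P14 was read against a background of 53.5% of genes called in WT and 53.7% in KO. From P1 to P14 in WT, *Lif* fell by 1.27 on the log2 scale (SE 0.37, adjusted p = 0.00309) and *Il20rb* by 1.84 (SE 0.30, adjusted p = 2.84e-06). In KO, *Lif* fell by 1.26 (adjusted p = 0.00290) and *Il6ra* by 0.89 (adjusted p = 0.00422), while *Il20rb*, at -0.66 (adjusted p = 0.0351), was not called. The 2 *Lif* calls were each kept in 5 of 8 fits without a library, that of *Il6ra* in 4 of 8 and that of *Il20rb* in all 8. The fall of *Lif* in WT was not called without WT P1 replicate 1 or 4 or WT P14 replicate 4, and that in KO not without KO P1 replicate 1 or KO P14 replicate 3 or 4. That of *Il6ra* was not called without KO P1 replicate 1 or KO P14 replicate 1, 2 or 3 (adjusted p of 0.0141 to 0.0189).

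From P14 to P21, *Il20rb* rose in KO by 1.55 (SE 0.28, adjusted p = 2.07e-04), the only member called among 9.16% of genes. In WT none of 8 was called among 6.83% of genes, with 3 at an unadjusted p under 0.05 (beside 6735 of 18583 genes) and 0 by DESeq2. *Lifr* rose in WT by 0.56 (adjusted p = 0.00320), which was short of the fold threshold, and had a log2 change of -0.09 in KO. From P21 to P35 no member was called in WT (4.0% of genes) or KO (6.34%). There were 0 and 2 members at an unadjusted p under 0.05, beside 5878 and 7058 of 18583 genes. DESeq2 called 0 members in both.

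Whether the KO effect differed between neighbouring ages was tested as an interaction in a fit of all 32 libraries. No member passed an adjusted p of 0.01 in any of the 3 steps, in which 0.0161%, 0.425% and 0.463% of genes passed. At an unadjusted p under 0.05 there were 1, 3 and 0 members, beside 1200, 2398 and 3241 of 18583 genes. *Il20rb* came closest: its effect at P21 exceeded that at P14 by 1.98 on the log2 scale (SE 0.42, adjusted p = 0.0137). DESeq2 called it (adjusted p = 5.16e-04), as did edgeR without KO P21 replicate 3 (0.00770). For *Lifr* the same difference was -0.65 (adjusted p = 0.0886), for *Stat3* 0.40 (0.173) and for *Socs3* 1.00 (0.392). DESeq2 called 0, 1 and 0 members in the 3 steps.

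Levels were compared between genes as CPM per kilobase of exon. *Il6st* was the most abundant member in every group, with means of 14.9 to 22.4 CPM per kilobase. In WT at P35 it was followed by *Lifr* (10.2, libraries 9.37 to 11.4) and *Stat3* (8.2, libraries 7.34 to 9.63), whose ranges overlapped. In KO at P35 the order was *Il6st*, *Stat3* (11.2, libraries 10.7 to 11.8), *Il20rb* (7.18, libraries 3.85 to 11.6), *Lifr* (5.07, libraries 4.22 to 5.99) and *Socs3* (4.56, libraries 2.90 to 7.56). The range of *Il20rb* overlapped those of *Stat3*, *Lifr* and *Socs3*, and those of *Lifr* and *Socs3* overlapped each other. *Il20rb* stood at 0.623 CPM per kilobase in WT (libraries 0.536 to 0.746), within the range of *Il6ra* (0.680, libraries 0.431 to 0.943) and below that of *Osmr* (0.867, libraries 0.752 to 0.964), and above both in KO. *Lif* had means of 0.0785 to 0.348 and *Il6* of at most 0.0628 CPM per kilobase.

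**Figure D4:**
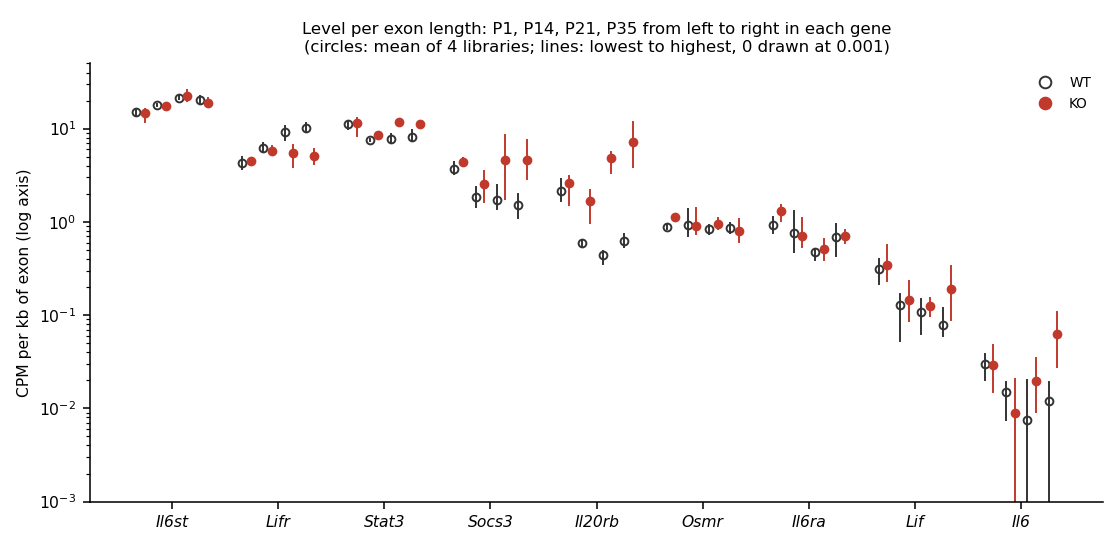
CPM per kilobase of exon of each member on a log axis, with circles for the mean of 4 libraries, lines from the lowest to the highest library, and P1, P14, P21 and P35 from left to right in WT and KO. Values of 0 are drawn at 0.001. *Il6st* lies at the top throughout, *Lif* and *Il6* at the bottom, and *Il20rb* moves from the lower range in WT to the upper range in KO at P21 and P35.

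The surrounding pathway was described with 68 further genes in 6 lists of other ligands, receptors, kinases, inhibitors and STAT3 targets. None was called at P1, where 15 of 61 tested had an unadjusted p under 0.05, beside 1978 of 18100 genes. None of 52 tested was called at P14, where 3 had such a p, beside 1072 of 15728 genes. DESeq2 called 4 pathway genes at P1 and 1 at P14, and the replicate block called *Timp1* at P14 (log2 0.99, adjusted p = 0.00358). At P21, 1 of 53 was called, beside 4.67% of all genes. This was *Timp1*, a STAT3 target that encodes an inhibitor of matrix metalloproteinases. It had 0.688, 1.57, 1.16 and 2.31 CPM in WT, against 10.5, 15.5, 11.2 and 8.87 CPM in KO. At P35, 14 of 53 were called, 9 higher and 5 lower, beside the 16.0% of all genes given above. With library totals the split was 21 higher and 2 lower.

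Of the ligands and receptors, none of the 5 tested among 10 other IL-6 family ligands was called at P35. Their log2 fold changes ran from 0.07 (*Ctf1*) to 1.07 (*Ebi3*, adjusted p = 0.0280). One of 3 tested receptors was higher: *Il11ra1*, the IL-11 binding chain, with 44.5, 39.8, 39.1 and 35.4 CPM in WT, against 72.6, 76.1, 74.4 and 59.1 CPM in KO (log2 0.86, SE 0.10, adjusted p = 3.13e-04). *Il10ra*, a chain of the IL-10 receptor found on leukocytes, was 1 of 2 tested genes of its family and was higher by 1.06 (SE 0.23, adjusted p = 0.00584), a call kept in 2 of 8 fits without a library (KO replicate 1 or 4, otherwise adjusted p of 0.0113 to 0.0195).

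Among 9 tested Janus kinases and other STATs, 2 were higher and 2 lower at P35. *Jak2*, the kinase of many cytokine and growth hormone receptors, had 117.5, 83.6, 113 and 117 CPM in WT, against 57.2, 37.1, 32.7 and 34.8 CPM in KO (log2 -1.39, SE 0.19, adjusted p = 5.34e-04). Every KO library lay below every WT library. *Stat5b*, a growth hormone effector, was lower, at -0.85 (adjusted p = 4.18e-04), and its paralog *Stat5a* higher by 0.65 (adjusted p = 0.00239). Reads of these paralogs can be split between them by the estimate of counts, and the *Stat5a* call was lost without WT replicate 1, KO replicate 3 or KO replicate 4. *Tyk2*, another Janus kinase, was higher by 0.67 (adjusted p = 7.84e-04).

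Of 15 other inhibitors of the signal, none was higher and 2 were lower at P35. *Ptpn11*, which encodes the phosphatase SHP2, was at -0.73 (adjusted p = 3.54e-04). *Socs2*, a feedback inhibitor of growth hormone signalling, was at -0.95 (adjusted p = 0.00636), kept in 2 of 8 fits without a library (WT replicate 4 or KO replicate 1, otherwise adjusted p of 0.0105 to 0.0190). With library totals *Ptpn11*, *Socs2* and *Stat5b* were not called.

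Of 19 tested STAT3 target genes from textbook accounts, 5 were higher and 1 lower at P35, and the median log2 fold change of the 19 was 0.20. *Junb*, an AP-1 transcription factor, had 6.21, 8.61, 7.38 and 6.87 CPM in WT, against 42.8, 44.9, 54.5 and 45.5 CPM in KO (log2 2.72, SE 0.12, adjusted p = 2.0e-06). *Timp1* was higher by 3.10 (SE 0.33, adjusted p = 1.89e-04) and *Fos*, also of the AP-1 family, by 2.94 (SE 0.37, adjusted p = 3.78e-04). These genes also answer to other signals and are no measure of STAT3 activity alone. *Vegfa*, an angiogenic growth factor, was lower, at -1.02 (SE 0.15, adjusted p = 6.99e-04). The other 2 higher genes were *Bcl3* and *Myc*, and the call of *Myc* was kept in 1 of 8 fits without a library (WT replicate 2, otherwise adjusted p of 0.0123 to 0.0238).

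**Figure D5:**
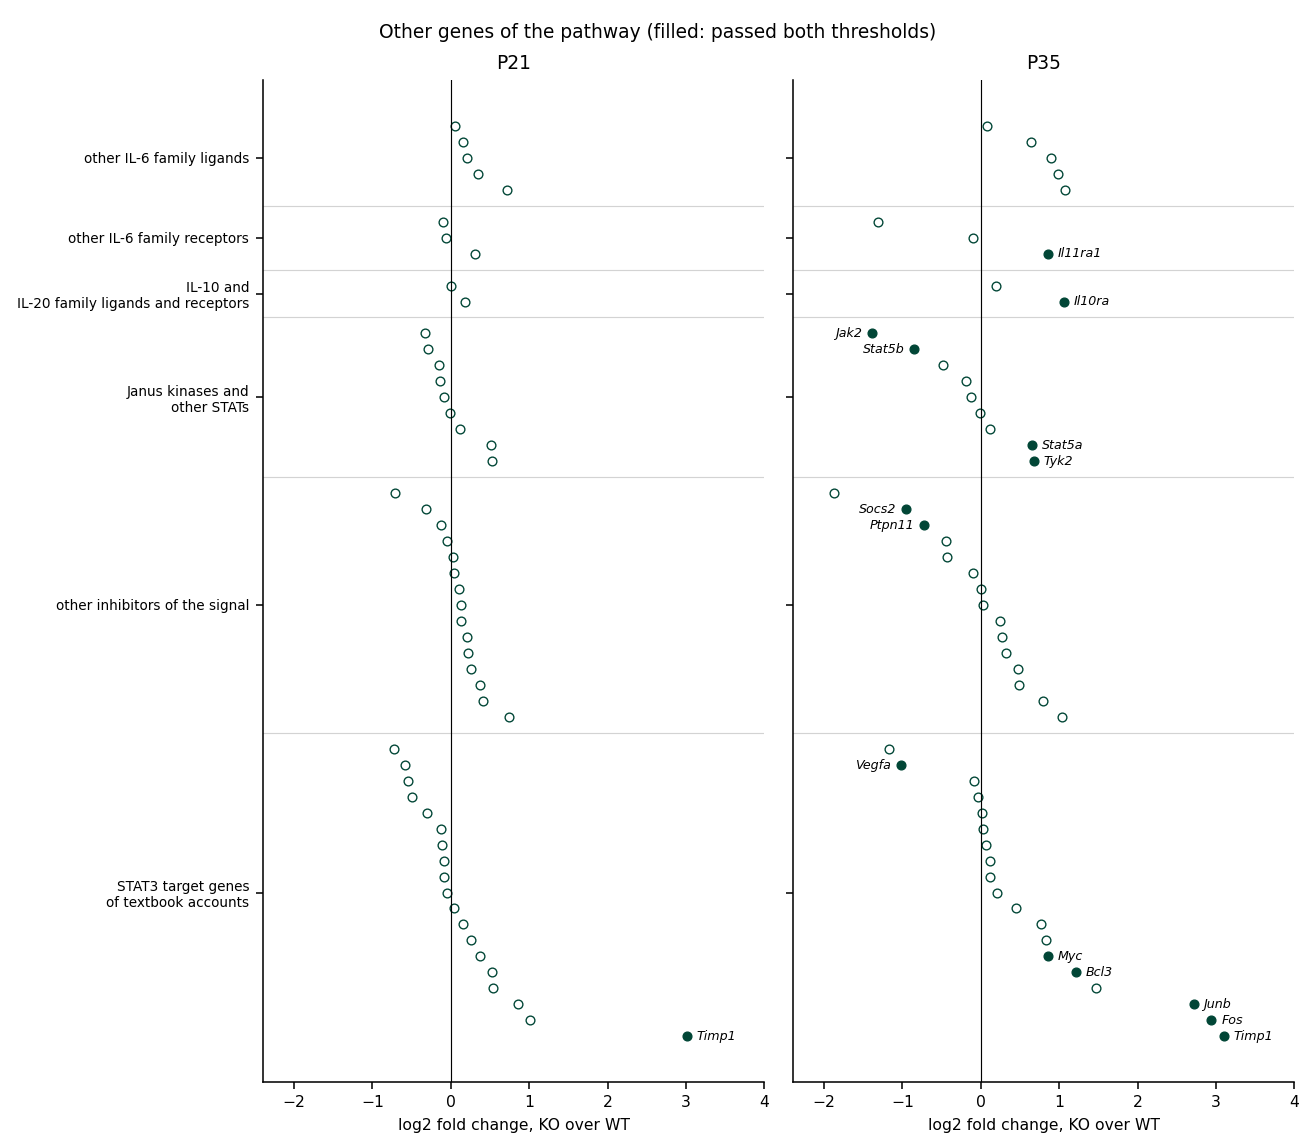
Log2 fold change of KO over WT at P21 and P35 for the tested genes of 6 pathway lists, one row of points for each gene, filled where both thresholds were passed and then named. At P21 *Timp1* alone is filled among the 53 genes, and at P35 there are 14, with 9 to the right of 0 and 5 to the left.

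The genes whose pattern was most like that of each member were sought among 18583 genes over the 32 libraries, by Pearson's r of log2 CPM after removal of each age's mean. These values are a description, since the libraries share age, genotype and composition. For *Il20rb* they were *Fosl1* (r = 0.974), which encodes the AP-1 protein FRA-1, *Ahnak2* (0.974) and *Mfsd7a* (0.971). *Fosl1* had at most 0.0246 CPM in any WT library at P21 and P35, against 1.45, 1.69, 1.35 and 1.56 CPM in KO at P21 and 1.05, 1.71, 3.11 and 5.13 CPM in KO at P35. As for *Il20rb*, KO replicates 3 and 4 were the highest at P35.

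For *Lifr* the nearest genes were *Sik2* (r = 0.917), *Lgr4* (0.915) and *Rps6ka5* (0.902), and for *Stat3* they were *Trim72* (0.909), *Dmwd* (0.906) and *Cog1* (0.898). *Sik2* encodes a salt-inducible kinase and *Trim72* a membrane repair protein of muscle. *Socs3* lay nearest to *Cnpy3* (0.855), *Pmepa1* (0.852) and *Olfm1* (0.847), and *Lif* to *Mmp14* (0.858), *Slc38a1* (0.853) and *Dap* (0.851). *Il6st* lay nearest to *Phf8* (0.878), *Gigyf2* (0.843) and *Atg2b* (0.826). *Il6ra* had *Map3k6* (0.837), *Pim3* (0.825) and *Rab27a* (0.824), and *Osmr* had *Acer2* (0.846), *Pld1* (0.830) and *Mylip* (0.816). For *Il6ra*, *Osmr* and each of the genes just named for them, replicate 4 was the highest P14 library in both genotypes.

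Among the members themselves, *Il20rb* and *Stat3* had the highest r, 0.778, followed by *Il6ra* and *Osmr* at 0.726 and *Lif* and *Socs3* at 0.707. At P14 replicate 4 stood high in both genotypes for *Il6ra* (11.3 CPM in WT, 9.47 in KO) and *Osmr* (16.7 and 16.9). The part of these libraries in the r of 0.726 was not tested. *Lifr* ran opposite to *Il20rb* (-0.827), *Socs3* (-0.722) and *Stat3* (-0.722). No member was among the 3 nearest genes of another.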

How the data were processed

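Muscle RNA of 32 libraries (4 per genotype and age) was analysed from the gene table deposited by the authors, which holds RSEM expected counts per gene. The submitters' processing notes name STAR 2.6.1 and RSEM 1.2.22, and the genome build was GRCm38. The study's methods name HTSeq as the counter. Since 4.26% of values were not whole, the table was taken as RSEM output. Whether counting used strand is not given in the sources used here. No column was left out (0 not used).

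Expected counts were rounded and tested in edgeR 4.0.16 (R 4.3.3; filterByExpr, TMM, quasi-likelihood, two-sided), WT against KO within each age. Age steps and interactions came from 1 fit of all 32 libraries. Benjamini-Hochberg adjustment ran over all genes tested, and genes were called at an adjusted p under 0.01 and over 1.5-fold (interactions on p only). Printed CPM use TMM factors over all 32 libraries (0.726 to 1.696). The fits were tested on simulated data. DESeq2 1.42.0, its size factors, library totals, other filters, an adjusted p under 0.05, the replicate block and omission of each library were alternatives. Separate animals are not stated per sample, so p-values measure the spread between these samples.

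Members and lists were chosen with earlier results of these data known. All members were named. Of each pathway list the called genes were named, or the 4 with the smallest p where over 4 were called. Names beyond these (*Bcl3*, *Myc*, *Ctf1*, *Ebi3*, *Cntfr*, *Ptpn6*, *Clcf1*, *Serpina3n*, *Cish*, markers within lists) were chosen after their values were seen. Replicate numbers come from the sample titles, which name no pairs or batches. At P14 the deviations of WT and KO libraries of one number from their group means correlated at 0.415, 0.468, 0.295 and 0.731, so the numbers were taken as pairs there. Of the 4 WT libraries, 3 correlated best with the KO library of their own number. At the other ages not every pair exceeded 0.1.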

Additional observations from a re-analysis of the deposited data

Results flagged for a closer look

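With 4 samples in a group, a sample was picked out when its gap to the nearest other exceeded the share of the group's range that Dixon's 95% criterion allows. Of 72 groups of 4 libraries, 4 held such a sample, and chance alone picks about 1 in 20. At P14, KO replicate 4 had 9.47 CPM of *Il6ra* and 16.9 CPM of *Osmr*, above the other 3 KO libraries. At P1, KO replicate 4 had 129.8 CPM of *Il6st* and 79.8 CPM of *Stat3*, below the other 3.

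A test of the difference between ages picked out *Jak2*, whose KO effect at P35 minus that at P21 was -1.11 on the log2 scale (edgeR interaction, adjusted p = 0.00389). The call was kept in 8 of 16 fits without a library, with adjusted p up to 0.0144, and was lost with library totals (-0.89, adjusted p = 0.0165) and with the 16 libraries of P21 and P35 only (-1.10, adjusted p = 0.0494).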

How the results depend on the processing

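Members called: at P14 (0) DESeq2 and the replicate block each gave 1, and at P35 (3) an adjusted p under 0.05 gave 5. Also at P35 library totals gave 4 higher and 0 lower, and *Socs3* was kept in 4 of 8 omissions of 1 library. At P21 (3) DESeq2 gave 2 and omission of 1 library 1 to 4, with 1 left without WT replicate 4 or KO replicate 2. Library totals gave 2 higher and 0 lower at P21, and the size factors of DESeq2 1 and 1. There an adjusted p under 0.05 in edgeR added *Socs3* (0.0362). For WT P14 against P1 (2), the lenient p gave 6, DESeq2 4, its size factors 4, library totals 6, no filter 4, at least 10 counts 4 and omission 1 to 3. For KO P14 against P1 (2), the lenient p gave 7, library totals 6, at least 10 counts 4 and omission 0 to 3. The lenient p gave 2 for WT P21 against P14 (0; omission 0 to 1), 3 for KO P21 against P14 (1) and 1 for KO P35 against P21 (0). For the interaction of P21 against P14 (0), the lenient p, DESeq2, library totals and the compared libraries only each gave 1, and omission 0 to 1.

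Other pathway genes called: at P1 (0) the lenient p gave 3, DESeq2 4 and no filter 1. At P14 (0) DESeq2 and the block each gave 1. At P21 (1) the lenient p gave 12, DESeq2 3, library totals 4, no filter 2, the fit of all 32 libraries 3 and omission up to 3. At P35 (14) the lenient p gave 29, DESeq2 18 and library totals 23. Those that DESeq2 added at P35 were *Ptpn6* (log2 0.78), *Clcf1* (0.88) and *Serpina3n* (1.45), all higher, and *Cish* (-1.895), lower.

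Of the member values of KO against WT within each age, 492 kept direction and side of the threshold, 9 gained and 19 lost a call. Another 24 changed sign, none of them called. Age steps and interactions were not in this count. With library totals the median log2 change of all genes from P1 to P14 was -0.87 in WT and -0.81 in KO. Library totals turned *Il6st* at P1, P14 and P35 (0.0033, 0.022 and 0.32) and *Osmr* at P14 and P35 (0.056 and 0.33). Omission of 1 library turned *Stat3* (-0.0062 to 0.19), *Il6st* (-0.067 to 0.080) and *Lif* (-0.17 to 0.32) at P1, *Osmr* (-0.32 to 0.22), *Il6ra* (-0.41 to 0.30) and *Lif* (-0.15 to 0.33) at P14, *Il6st* (-0.013 to 0.11) and *Il6ra* (-0.027 to 0.21) at P21, and *Osmr* (-0.26 to 0.020) and *Il6ra* (-0.092 to 0.28) at P35. The causes were not tested. Beyond *Il20rb*, the replicate block changed no other call of a member at any age. *Il6* was tested only without the filter on low counts.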

Other observations

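Some values varied between the libraries of a group. In WT muscle at P35 the receptor chains *Il6ra* and *Cntfr*, which binds ciliary neurotrophic factor, split by library: *Il6ra* had 8.15 and 7.79 CPM in replicates 1 and 3 and 3.72 and 3.85 CPM in replicates 2 and 4. *Cntfr* had 79.4 and 57.1 CPM in replicates 1 and 3 and 18.7 and 24.8 CPM in replicates 2 and 4. In KO at P35 *Cntfr* ran from 11.1 to 29.0 CPM. In the main comparison of KO with WT at P35 *Cntfr* had an unadjusted p under 0.05 and was not called. With the replicate block in edgeR it was called lower (log2 -1.18, adjusted p = 0.00176). That fit treats libraries of one number as pairs, which was not assumed at P35. The correlations of such libraries there were 0.233, -0.097, -0.045 and 0.182.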
